A study of Mus musculus with 7 samples.

Results

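Migratory dendritic cells (DCs) that carry Fscn1 and Ccr7 RNA were taken from the inflamed central nervous system of mice. A cell barcode was counted as a migratory DC when it held at least 2 UMIs (single RNA molecules) of Fscn1, at least 1 of Ccr7, at most 1 UMI of the T cell genes Cd3d, Cd3e and Cd3g together, and at most 30 UMIs of the macrophage genes C1qa, C1qb and C1qc per 10000 UMIs. Barcodes with fewer than 200 genes or over 10% mitochondrial UMIs were left out first. The rule chose 218 of the 7076 barcodes that passed this filter in the 3 libraries of CD45-enriched cells, and the whole series holds 13632 such barcodes in 7 libraries. The cells were chosen on measured RNA, so their Fscn1, Ccr7, Cd3 and C1q levels, and every comparison of their levels with those of other cells of these libraries, are given as description with no test. Tests are given only for the difference between genotypes, and for the difference of that effect between gates.

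The mice were B6, all had experimental autoimmune encephalomyelitis (EAE) induced with the MOG35-55 peptide of myelin, and cells were isolated at the peak of disease and enriched on beads for CD45, a surface protein of leukocytes. The wild-type group (genotype Lag3wt, here WT) gave the libraries WT_CD45 1 and WT_CD45 2, and the LAG3-deficient group (genotype Lag3Floxed, here Lag3KO) gave 1 library, Lag3KO_CD45 1. The labels give 5 mice per group and do not say which or how many mice are in a library, nor which Cre line acts on the floxed gene, so tests measure only the spread between these libraries. LAG3 is an inhibitory receptor of T cells that binds MHC class II, the protein that DCs use to show peptides to CD4 T cells.

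Lag3 RNA went against 1 label. Over all barcodes, WT_CD45 1 held 304 Lag3 UMIs, the library labelled WT_CD45 2 held 4, and Lag3KO_CD45 1 held 2, so the library labelled WT_CD45 2 was as low as the Lag3KO library. Migratory DCs held 4, 0 and 0 Lag3 UMIs in the same order. The label was kept, and each direction by genotype below rests on it, so values are also given against each WT library. The 3 libraries shared 7 to 11 barcode sequences pairwise, and 0 of these were migratory DCs in both libraries of a pair.

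Migratory DCs are conventional DCs that have matured. They take up antigen in a tissue, switch on the chemokine receptor CCR7, and follow its ligands along lymphatic vessels to lymph nodes, where they present the antigen to naive T cells. Fascin, the protein of Fscn1, bundles actin into the long dendrites of these cells. Maturation raises co-stimulatory ligands and also molecules that restrain T cells, such as PD-L1, so the same cells are also described as mature DCs enriched in immunoregulatory molecules.

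The markers outside the rule fit the label. Values given as 3 numbers are in the order WT_CD45 1, library labelled WT_CD45 2, Lag3KO_CD45 1. Fscn1 and Ccr7 chose the cells, so their levels lend the label no support. A migratory DC held a median of 12, 9 and 14 Fscn1 UMIs, above the limit of 2. The median of Ccr7 was 11, 12 and 11 UMIs. Ccl22, which encodes a chemokine for CCR4-bearing T cells and was not part of the rule, was found in 82.4%, 86.3% and 95.1% of the cells. Tmem123, a membrane protein gene and the other marker outside the rule, was found in 98.8%, 98.0% and 100% of them. Among DCs chosen by Cd209a (the Cd209a gate: at least 2 UMIs, same Cd3 and C1q limits, 257 barcodes, median depths 6086, 5839 and 4972 UMIs), Ccl22 was found in 3.92% to 10.5% and Fscn1 in 0% to 3.6%. Migratory DCs were left out of this gate, so its low Fscn1 was partly set by that choice. Tmem123 was found in 43.2%, 58.8% and 51.6% of the Cd209a gate DCs, so its presence alone marks migratory DCs weakly. Its median was 11, 11 and 11 UMIs in migratory DCs and 0, 1 and 1 in Cd209a gate DCs. With every cell thinned to 2000 UMIs, Ccl22 was found in 68.2%, 84.3% and 86.6% of migratory DCs and in 3.6%, 1.96% and 4.21% of Cd209a gate DCs.

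Few cells sat at the edge of the Fscn1 and Ccr7 limits, and more were kept out by the T cell and C1q limits. Just inside, 22 cells had 2 or 3 Fscn1 UMIs or a single Ccr7 UMI, and 22 of 22 carried Ccl22 or Tmem123. Just outside, 7 barcodes had 1 Fscn1 UMI with Ccr7, and 14 had at least 2 Fscn1 UMIs without Ccr7; Ccl22 or Tmem123 was in 6 and 12 of these. A further 45 barcodes exceeded the C1q limit, and 153 held 2 or more Cd3 UMIs; Ccl22 or Tmem123 was in 45 and 152 of these. Those 153 had median depths of 14097, 14996 and 13747 UMIs, against 4529, 4407 and 3913 UMIs in the migratory DCs of the same libraries. Tmem123 was also found in 43.2% to 58.8% of Cd209a gate DCs, so carrying either gene is a weak mark of a migratory DC.

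The genes that led over all other barcodes were alike in the 3 libraries. Values are CPM, UMIs per 1000000 UMIs of the summed cells, and folds have 10 CPM added to both sides. After the rule genes came Serpinb6b, a protease inhibitor, at 1327, 1133 and 1532 CPM (26.4 to 28.8-fold over the rest), Nudt17 (23.4 to 25.2-fold) and Ramp3, a partner of the calcitonin receptor family (22.9 to 29.3-fold). Cacnb3, a calcium channel subunit, led by 22.7 to 27.0-fold and Ccl22 by 18.9 to 33.3-fold. Il4i1, a secreted amino acid oxidase that dampens T cells, led by 17.3 to 24.96-fold, and Cd200, whose protein signals to the inhibitory receptor CD200R on myeloid cells, by 15.7 to 17.5-fold.

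Further down the same list stood Tbc1d4, a regulator of vesicle traffic (15.4 to 16.5-fold), Serpinb9, the inhibitor of granzyme B (13.4 to 20.1-fold), Apol7c (13.2 to 23.1-fold) and Socs2, a feedback inhibitor of cytokine receptors (12.5 to 15.4-fold). Cd83, a classical surface marker of mature DCs, led by 10.4 to 11.9-fold at 723, 695 and 924 CPM. Tuba1a, a tubulin gene, led by 9.60 to 11.1-fold. Zmynd15, Tspan3, Bcl2l14, Lactb, Nostrin, Spint2, Fam177a, Samsn1, Cd1d1, Tmcc3, Gnb4, Actn1, Glipr2 and the unannotated Gm13546 completed the 30 genes. Across the 30 genes the lowest fold in any library was 7.71, for Glipr2.

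**Figure D1:**
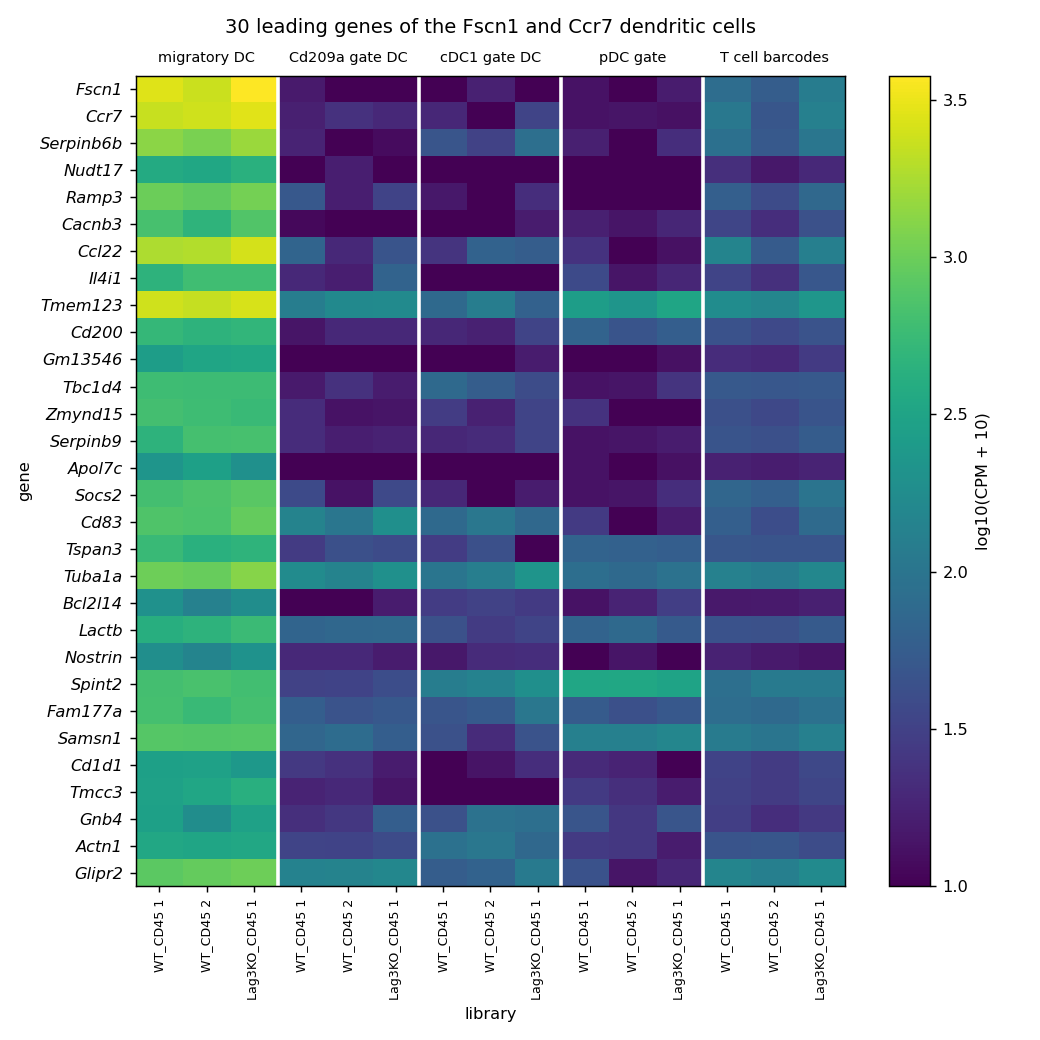
Heat map of the 30 leading genes (rows) in 5 sets of barcodes, each split into 3 libraries (columns); colour is log10(CPM + 10). The 3 migratory DC columns are brighter than the other 12 in every row, and Spint2 in the pDC gate comes nearest to them, at up to 336 CPM against 619 CPM or more.

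Markers of other cell types were low, and those of monocytes the least so. T cell markers summed to 71.8, 54.3 and 39.8 CPM in migratory DCs, against 2280.5 to 3062 CPM in barcodes with at least 3 Cd3 UMIs; Cd3 was limited by the rule. B cell markers summed to 8.98, 10.9 and 74.3 CPM, with 15 Cd79a UMIs in the Lag3KO library, all in 1 cell, and 0 in both WT libraries. Monocyte and macrophage markers, 12 genes led by Lyz2, summed to 6281, 7620 and 5754 CPM, against 31867, 34507 and 34999 CPM in all other barcodes. C1qa, C1qb and C1qc are among the 12 and were limited by the rule, so part of this gap was set by the choice of cells. Nos2, Cd209d and Cd207, the gene of the Langerhans cell protein langerin, were at 0 UMIs in all 3 libraries, as were Ncr1, Prf1 and Eomes of natural killer cells.

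Markers of the other DC types were also low. The 8 cDC1 markers (conventional DCs that cross-present antigen) summed to 53.9, 152 and 63.7 CPM against 2324 to 2363 CPM in DCs chosen by Xcr1 or Clec9a (cDC1 gate, 73 barcodes). The 8 pDC markers (plasmacytoid DCs, which make type I interferon) summed to 404, 264 and 149 CPM against 10979 to 11587 CPM in the Siglech gate (pDC gate, 182 barcodes). Xcr1 and Clec9a are among the cDC1 markers and Siglech among the pDC markers, so part of each gap was set by the choice of gate. Of the pDC marker Ly6d, a single cell held 59.7%, 91.7% and 95.5% of the UMIs of its library.

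Set against the Cd209a gate, migratory DCs held little RNA of a set of genes that the Cd209a gate DCs carried. Cd7 stood at 8.98, 0 and 5.31 CPM in migratory DCs and at 508, 686 and 620 CPM in Cd209a gate DCs. Clec10a, a sugar-binding uptake receptor, stood at 26.9, 18.1 and 29.2 CPM against 546, 425 and 573 CPM. Ifitm1, an interferon-induced membrane gene, was still present at 469, 221 and 502 CPM but stood at 5091, 3004 and 5019 CPM in Cd209a gate DCs. Ifitm6, Cd300a, Wfdc17, Fcgrt, Cfp, Ms4a4c and Sla were also among the 12 genes with the lowest ratios, besides Cd209a itself, which chose the gate. In the other direction, Fabp5, a fatty acid carrier, stood at 2357, 1900 and 2029 CPM against 85.3, 45.8 and 54.4 CPM, and Anxa3, an annexin, at 469, 445 and 497 CPM against 8.25, 3.27 and 13.6 CPM.

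Chemokine RNA in these cells was dominated by Ccl5. Its level was 14669.5, 14354 and 15698 CPM, against 741, 268 and 206 CPM in Cd209a gate DCs and CCL5 is a chemokine that attracts T cells and monocytes. Ccl22 followed at 1798, 1892 and 2554 CPM, and Ccl17, the other CCR4 ligand, at 1446, 1386 and 1657 CPM. Cxcl16, the ligand of CXCR6 on effector T cells, stood at 1131, 1212 and 1189.5 CPM. UMIs are counted from the 3′ end of each RNA and do not scale with transcript length, so length does not set the order of these levels. Other differences between genes in how well their RNA is counted were not tested. Ccl19, a ligand of CCR7 itself, had 0 UMIs in the 218 cells, and 18 of the 23 chemokine genes listed had at least 1 UMI.

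Among receptors, Ccr7, which chose the cells, stood at 2269, 2471 and 2899.5 CPM and no other receptor came near it. Ccrl2, a chemerin-binding receptor, stood at 173, 134 and 173 CPM, and Gpr183, which guides DCs along oxysterol gradients, at 123, 116 and 82.3 CPM. Ccr2, the receptor by which monocytes leave the blood, stood at 31.4, 68.7 and 66.4 CPM in migratory DCs and at 472, 588 and 408 CPM in Cd209a gate DCs. Migratory DCs thus held little Ccr2 beside the Ccr7 that chose them.

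Ligands that stimulate T cells were present beside ligands that restrain them. Cd40, the receptor through which helper T cells license DCs, stood at 166, 318 and 449 CPM, Cd86 at 186, 235 and 273 CPM, and Cd80 at 112, 97.7 and 112 CPM; the last 2 are the ligands of CD28. Cd80 was at 17.5 to 22.01 CPM in Cd209a gate DCs, while Cd86 was at 114 to 179 CPM and Cd40 at 138 to 165 CPM. Cd200 stood at 512, 449 and 483 CPM against 4.13 to 9.80 CPM in Cd209a gate DCs. Cd274 (PD-L1) stood at 242, 232 and 215 CPM against 13.1 to 45.4 CPM, and Pdcd1lg2 (PD-L2) at 137, 130.3 and 117 CPM against 6.54 to 21.4 CPM. The 3 libraries lay close together for Cd80, Cd200, Cd274 and Pdcd1lg2, whereas Cd40 differed more between the WT libraries.

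Among the cytokine genes named here, Il1b and Il15ra had the highest levels. Il1b stood at 548, 420 and 534 CPM in migratory DCs, a level like the 601, 379 and 629 CPM of Cd209a gate DCs. Il15, a survival factor for memory T cells and natural killer cells, stood at 121, 97.7 and 95.6 CPM, and Il15ra, which presents it in trans, at 249, 242 and 189 CPM; the highest value in a Cd209a gate library was 12.4 CPM for Il15 and 21.4 CPM for Il15ra. Il12b, the shared p40 subunit of IL-12 and IL-23, stood at 67.3, 39.8 and 66.4 CPM and had 0 UMIs in Cd209a gate DCs of all 3 libraries. Ebi3, a subunit of IL-27 and IL-35, stood at 83.1, 79.6 and 92.9 CPM.

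**Figure D2:**
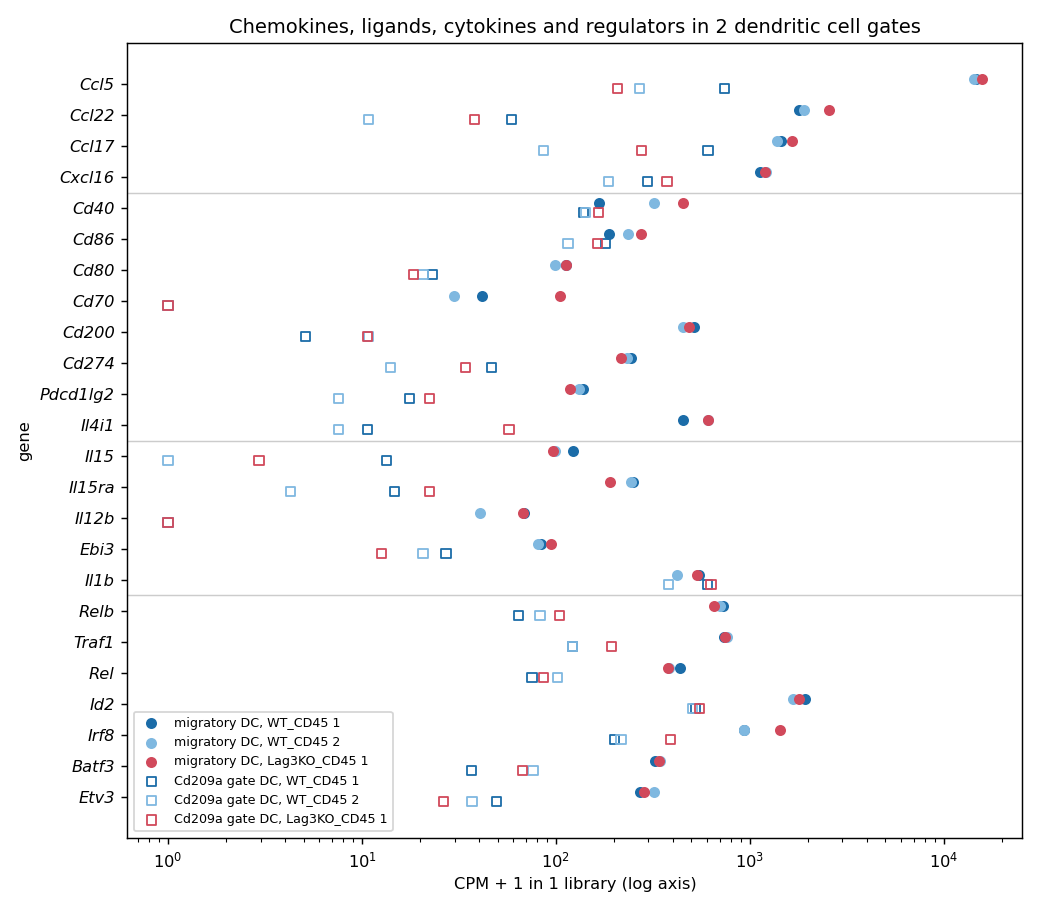
CPM + 1 (horizontal log axis) of 24 genes in migratory DCs (filled circles) and Cd209a gate DCs (open squares), 1 point per library. Ccl5, Ccl22, Cd200, Il15ra and Relb lie to the right in all 3 libraries of migratory DCs, and Il1b overlaps between the gates.

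The NF-kB genes, which encode the transcription factors that drive DC maturation, were high in the migratory DCs of every CD45 library. Relb, the subunit needed for mature DCs, stood at 729.5, 702 and 656 CPM against 63.3, 81.7 and 103 CPM in Cd209a gate DCs. Traf1, a signalling adaptor, stood at 736, 759.8 and 743 CPM against 121, 121 and 192 CPM, and Rel at 438, 379.9 and 377 CPM against 74.3, 101 and 85.5 CPM. Nfkbia, the inhibitor that NF-kB itself induces, stood at 1603, 1458 and 1609 CPM against 871, 729 and 981 CPM. The order of the gates was the same in each library for these 4 genes.

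The 18 listed lineage transcription factors summed to 4665, 4447 and 5026 CPM, against 2363, 2383 and 2554 CPM in Cd209a gate DCs. Batf3 and Irf8 stood above their level in Cd209a gate DCs and made up only part of this gap. Id2, required for conventional DCs, stood at 1928, 1672 and 1792 CPM, Irf8 and Batf3, both needed for cDC1, at 929, 926 and 1429 CPM and at 323, 344 and 337 CPM, and Spi1 (PU.1) at 386, 438 and 396 CPM. Batf3 was at 35.8 to 75.2 CPM in Cd209a gate DCs, and Irf8 at 199 to 388 CPM. Irf4, the factor linked to migration of cDC2, was at 15.7, 14.5 and 23.9 CPM. Xcr1, the receptor that defines cDC1, had 0, 5 and 0 UMIs.

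Lyz2, Ccl5 and Cd74 varied most among the cells. Variance was divided by the mean after each cell was thinned to 3000 UMIs (71, 44 and 60 cells were deep enough), so that a value of 1 is what counting alone gives; the median over 1380 genes was 1.15. The median over libraries was 47.3 for Lyz2, a monocyte lysozyme gene, 39.1 for Ccl5, 34.5 for Cd74 (the invariant chain of MHC class II) and 29.7 for Ccl17. H2-Ab1, H2-Eb1 and H2-Aa, the MHC class II chains, gave 20.02, 16.7 and 16.1. Malat1, Tmsb4x, Cst3, Apoe, Crip1, Fth1 and Fabp5 were also among the 15 most variable genes, at 11.02 (Fabp5) to 30.7 (Malat1).

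Ccl17 was concentrated in few cells. In WT_CD45 1, 57.6% of the cells had no Ccl17 UMI and the highest cell held 336 per 10000 UMIs. The share without it was 51.0% and 32.9% in the other libraries. Ccl5 was in nearly every cell, with 1.18%, 3.92% and 2.44% of cells without it, but ranged up to 666, 691 and 640 per 10000 UMIs.

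Cells with much MHC class II RNA tended to hold little Ccl5 RNA. Over the thinned cells of each library, the summed H2-Aa, H2-Ab1, H2-Eb1 and Cd74 UMIs were ranked against each of 357 genes with a mean of at least 1 UMI. Spearman's correlation with Ccl5 was -0.65, -0.50 and -0.61, over 71, 44 and 60 cells. Epsti1, an interferon-induced gene, gave -0.548, -0.505 and -0.513. Serpinb6b, Cst3 (cystatin C, a protease inhibitor), Lactb, Tubb5 and Cacnb3 were also among the 12 lowest. Genes that went with MHC class II included mt-Co1 (0.333, 0.37 and 0.63), Fcer1g, S100a4, S100a6, Plac8, Ifi30 and Ccl17 (0.20, 0.244 and 0.273). These are descriptions of cells that share a library, and thinned UMIs are shares of a fixed total, so more of one RNA leaves less for others.

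**Figure D3:**
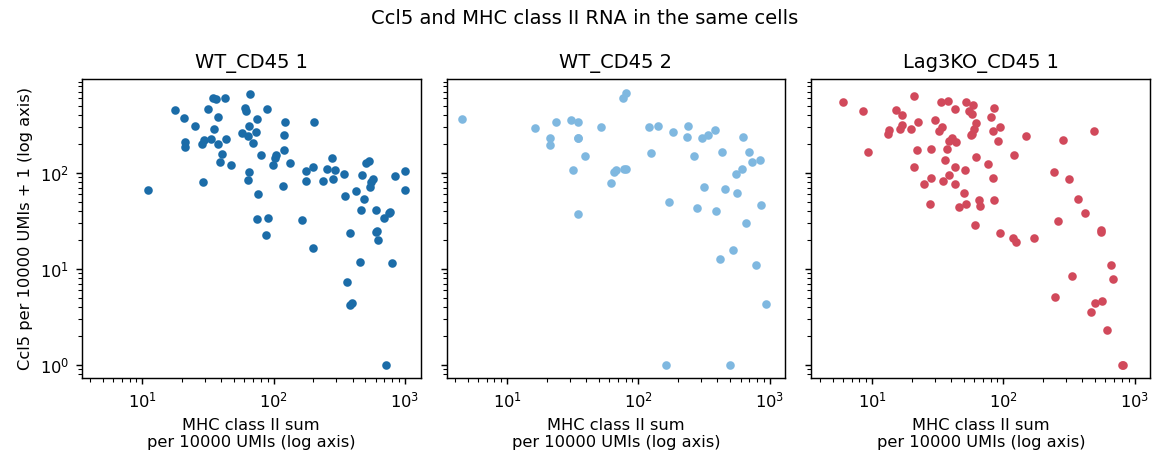
Each point is 1 migratory DC: MHC class II RNA (sum of H2-Aa, H2-Ab1, H2-Eb1 and Cd74 per 10000 UMIs, log axis) against Ccl5 per 10000 UMIs plus 1 (log axis), 1 panel per library. Cells with the most MHC class II RNA lie low on the Ccl5 axis in each panel.

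The share of migratory DCs in the Lag3KO library lay between those of the WT libraries under this rule, and above both without its C1q and Cd3 limits. They were 85 of 2322 barcodes in WT_CD45 1 (3.66%, 95% Clopper-Pearson interval 2.93% to 4.51%), 51 of 2237 in its fellow WT library (2.28%, 1.70% to 2.99%) and 82 of 2517 in Lag3KO_CD45 1 (3.26%, 2.60% to 4.03%). The Lag3KO share was 0.288 percentage points above the WT mean, with an SD of 0.976 points between the WT libraries. Of the barcodes in the 4 DC gates together, migratory DCs made up 31.2%, 28.0% and 29.7%. Without the C1q and Cd3 limits, an alternative chosen after seeing the data, the shares were 6.24%, 4.07% and 7.15%, and the Lag3KO share was 2.00 points above the WT mean. The intervals cover counting error only, and an exact permutation test over 3 libraries has only 3 arrangements, so it could not pass 0.05 and none was run.

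By genotype, 35 of 4466 genes tested passed the threshold in migratory DCs (0.784% of genes), 11 higher (0.246%) and 24 lower (0.537%) in the Lag3KO library. Fscn1, which chose the cells, is in these counts only because the fit runs over all genes; without it 34 genes remain, 10 higher and 24 lower. Counts were summed per library over the cells and tested with edgeR's quasi-likelihood test (two-sided, Benjamini-Hochberg adjusted p under 0.05), and 268 genes (6%) had an unadjusted p under 0.05. The Lag3KO value lay beyond both WT libraries for 35 of the 35 genes, and for 25 its gap to the nearer WT library was larger than the gap between the WT libraries. The test that chose these genes on the same libraries favours such an order, so these counts add no support. The share over all genes tested is not given. With 1 residual degree of freedom the calls hang on how the spread is shared over genes: edgeR with its newer estimator (legacy off) and DESeq2 each called 0 genes, with 254 and 26 genes at an unadjusted p under 0.05, and a narrower gate (at least 3 Fscn1 and 2 Ccr7 UMIs) called 0, with 190. The DESeq2 adjusted p was 0.999 for each of the 35 genes, and every call below shares this limit.

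MHC class II genes were lower in the Lag3KO library. H2-Eb1, a beta chain, stood at 4683, 6079 and 3133 CPM, a log2 difference of -0.80 (SE 0.125, edgeR adjusted p = 1.9e-07). H2-Aa stood at 6312, 7291 and 4323 CPM (-0.68, SE 0.116, edgeR adjusted p = 4.7e-06). Cd74 stood at 12489.8, 14687 and 9726 CPM (-0.51, SE 0.0959), and H2-Ab1 at 3468, 4657 and 2881 CPM (-0.52, SE 0.131). The Lag3KO library was the lowest of 3 for each of these 4 genes, and the library labelled WT_CD45 2 the highest. Against WT_CD45 1 alone the log2 differences of H2-Eb1, H2-Aa, Cd74 and H2-Ab1 were -0.60, -0.56, -0.38 and -0.28. Against the other WT library alone they were -1.0, -0.80, -0.64 and -0.74.

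The rest of the MHC class II pathway did not pass the test. Of 12 tested genes of the list, 10 had negative and 2 positive log2 differences. The 4 genes above passed as lower, beside 0.537% of all 4466 genes. The median of the list was -0.44, beside a median of -0.016 over all genes. H2-DMa and H2-DMb1, the chains of the peptide exchange protein, stood at 447, 452 and 374 CPM and at 168, 275 and 135 CPM. Ctss, the protease that cleaves the invariant chain, stood at 1367, 1491 and 1378 CPM, and H2-DMb2 at 276, 224 and 255 CPM. Ciita, the master regulator of these genes, was at only 15.7, 32.6 and 39.8 CPM.

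The MHC class II difference was seen at the median and both quartiles of single cells, and less at the highest cell. The summed RNA of the 4 genes had a median of 119, 184 and 57.6 per 10000 UMIs. The lower quartile was 57.3, 56.9 and 33.8. The upper quartile was 428, 476 and 144, while the highest cell reached 1007, 930.2 and 811. Those highest cells held 18.1, 3.25 and 29.6 Fscn1 UMIs per 10000, against medians of 26.7, 23.7 and 37.3 in their libraries. Whether fewer cells were rich in MHC class II RNA or each cell held less of it was not tested. For H2-Eb1 the medians were 19.4, 35.5 and 6.45 per 10000 UMIs, and 9.41%, 13.7% and 26.8% of the cells had no H2-Eb1 UMI. With each cell thinned to 2000 UMIs, H2-Eb1 was found in 83.5%, 82.4% and 56.1% of migratory DCs, in 91.9%, 90.2% and 86.3% of Cd209a gate DCs, and in 63.9%, 46.1% and 49.7% of barcodes with at least 3 Cd3 UMIs, which can hold doublets and free RNA. The share in Lag3KO migratory DCs was thus within the range of those T cell barcodes. H2-Eb1 stood at 3484, 2559 and 2482 CPM in the T cell barcodes and at 1377, 1905 and 1361 CPM in the pDC gate, and how much of it was free RNA was not tested. Cells of a library are not replicates, so this has no test of its own.

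**Figure D4:**
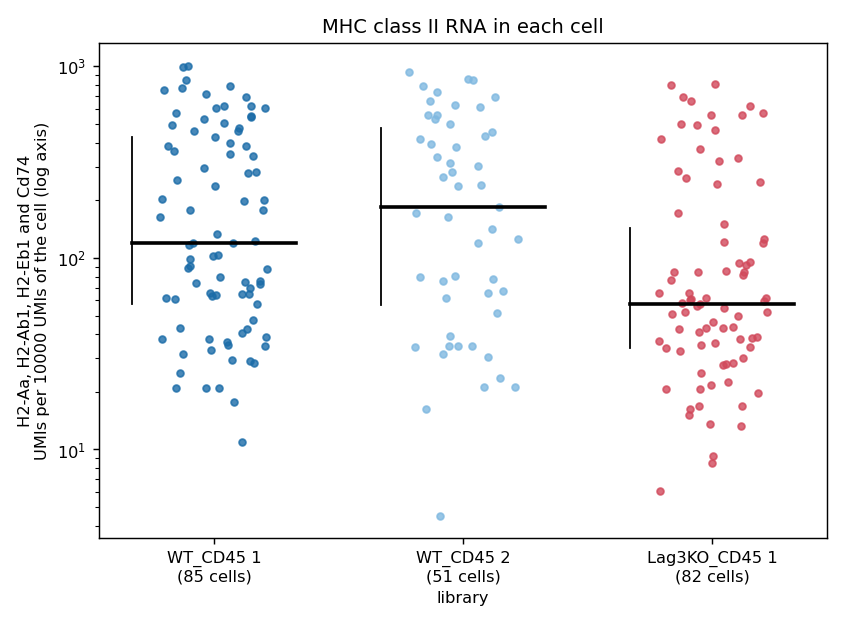
Summed H2-Aa, H2-Ab1, H2-Eb1 and Cd74 UMIs per 10000 UMIs (log axis) in each migratory DC, by library; the thick line is the median and the thin line spans the quartiles. The medians are 119, 184 and 57.6, and the highest cells of the 3 libraries are close.

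The summed monocyte and macrophage markers (6281, 7620 and 5754 CPM) were highest and lowest in the same libraries as MHC class II, and their part in the result was not tested beyond what follows. When the cells rich in Lyz2 (over 100 per 10000 UMIs) or with at least 5 B cell marker UMIs were left out, a choice made after seeing the data, H2-Eb1, H2-Aa and Cd74 still passed, and H2-Ab1 kept its log2 difference of -0.52 but missed the threshold (edgeR adjusted p = 0.0819). Without the cells over 2 times the median depth the log2 differences of H2-Eb1, H2-Aa, Cd74 and H2-Ab1 were -1.29, -1.17, -0.88 and -1.07. In Cd209a gate DCs, H2-Eb1 stood at 7923, 6850.3 and 6754 CPM. The difference of the genotype effect between the 2 gates was -0.61 for H2-Eb1 (SE 0.164, edgeR adjusted p = 0.106) and -0.51 for H2-Aa (SE 0.151, edgeR adjusted p = 0.308), so the lower level was not shown to differ from that in Cd209a gate DCs.

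H2-Aa, H2-Ab1 and H2-Eb1 lie in 1 block of chromosome 17. The promoters of the 2 chains with the largest differences are shown because both carry the paired X and Y boxes through which CIITA acts on MHC class II genes, in antigen-presenting cells. The sequences are RefSeq's on GRCm38.p6, from 250 bases before to 50 after the start of the gene, 5′ to 3′ on the strand of the gene. H2-Eb1 is chr17:34305617-34305916 (plus strand) and H2-Aa is chr17:34287774-34288073 (minus strand). Capitals mark CTNGCAAC, the start of the X box, and then CTGATTGG, the Y box; the first pattern was written after both sequences had been read.
H2-Eb1: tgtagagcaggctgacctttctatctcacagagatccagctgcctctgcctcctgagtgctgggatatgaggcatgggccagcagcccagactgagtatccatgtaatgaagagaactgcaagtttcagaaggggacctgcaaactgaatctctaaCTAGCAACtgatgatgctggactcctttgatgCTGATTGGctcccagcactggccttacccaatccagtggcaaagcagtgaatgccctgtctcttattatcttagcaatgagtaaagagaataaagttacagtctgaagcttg
H2-Aa: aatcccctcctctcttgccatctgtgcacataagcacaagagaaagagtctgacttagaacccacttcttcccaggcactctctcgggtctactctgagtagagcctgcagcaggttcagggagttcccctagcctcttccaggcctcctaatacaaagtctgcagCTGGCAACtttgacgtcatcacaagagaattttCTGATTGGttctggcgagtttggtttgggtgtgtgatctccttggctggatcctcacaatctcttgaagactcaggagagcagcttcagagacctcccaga

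The 2 boxes were 24 bases apart in H2-Eb1 and 25 in H2-Aa, and the Y box began 62 and 51 bases before the start. Searched on both strands, CTGATTGG was in 4.1% and CTNGCAAC in 3.42% of the 32851 promoters of that length in the table, and both were in 59 promoters (0.18%). Of the 10 genes of the MHC class II list with a promoter in the table, 3 held both (H2-Aa, H2-Eb1 and H2-Eb2). Of the 30 leading genes, 23 had a promoter there and 0 held both. A match describes letters and shows no binding in these cells.

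Several other genes fell in the Lag3KO library with like values in both WT libraries. Tmsb10, which binds actin monomers, stood at 2584, 2526 and 1341 CPM (log2 -0.95, SE 0.154, edgeR adjusted p = 7.6e-07). Lgals3, the gene of galectin-3, stood at 559, 507 and 239 CPM (-1.18, SE 0.26). Nr3c1, the glucocorticoid receptor gene, stood at 47.1, 43.4 and 5.31 CPM, from 21, 12 and 2 UMIs. Without the cells over 2 times the median depth, or without the Lyz2-rich cells, Tmsb10 kept its call. The log2 difference of Lgals3 was then -0.62 and -0.89, and that of Nr3c1 -3.70 and -3.67, and neither gene passed. Tmsb10 was also lower among all other barcodes, by 0.76 on the log2 scale, while Lgals3 and Nr3c1 there differed by -0.08 and -0.02.

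Plac8 and Ifi27l2a, both high in monocytes or under interferon, fell too. Plac8 stood at 864, 1067 and 497 CPM and 4137, 5020.1 and 3922 CPM in Cd209a gate DCs. Ifi27l2a stood at 817, 1114 and 584 CPM (log2 -0.74, SE 0.202). Without the Lyz2-rich cells Plac8 was at -0.75 against -0.98 and missed the threshold, and without the deep cells it was at -0.40; Ifi27l2a kept its call in both. Hspa1a, an inducible heat shock gene, stood at 334, 90.5 and 15.9 CPM, with log2 differences of -4.38 against WT_CD45 1 alone and -2.52 against the other WT library alone, and among all other barcodes it was lower by 2.15 on the log2 scale.

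Some of the strongest falls rested on single cells. Saa3, an acute phase gene, stood at 153, 753 and 21.2 CPM, and 1 cell held 206 of the 208 UMIs of the library labelled WT_CD45 2. Against WT_CD45 1 alone, which lacks that cell, the log2 differences of Saa3, Clec4e and Cfb were -2.84, -0.57 and -1.21. Against the other WT library they were -5.17, -3.65 and -3.49. Elane, the gene of neutrophil elastase, had 1, 38 and 0 UMIs, and the 38 were in 1 cell. Clec4e (Mincle) had 83.8% and Cfb (complement factor B) 84.8% of that library's UMIs in 1 cell. Cd209a had 25, 4 and 0 UMIs, with 80% and 50% in 1 cell. With a floor of 3 UMIs for the Lag3KO library (7.97 CPM), Cd209a was at least 4.43-fold and Elane at least 8.77-fold lower than the WT mean. These limits do not hold against each WT library. The 1 Elane UMI of WT_CD45 1 was below the floor, and Cd209a stood at 56.1 CPM in WT_CD45 1 and 14.5 CPM in the library labelled WT_CD45 2.

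The last 9 genes that fell carry ribosomal protein names, such as Rps27, Rps29, Rpl35 and Rps27rt, or Gm clone names. Reads of near-identical copies can be split between names by the counting, so their values are uncertain. Of 93 tested genes with Rpl or Rps names and copies, 5 were called, 64 were lower and 29 higher, with a median of -0.12. Over all 4466 genes, 0.784% were called, 2296 were lower and 2170 higher. Rpl35 stood at 790.2, 326 and 308 CPM, with a log2 difference of -0.12 against the library labelled WT_CD45 2 alone.

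Cst3, a gene of high level in all 3 libraries, rose in the Lag3KO library. It stood at 15841, 16145 and 21218 CPM (log2 0.38, SE 0.0845, edgeR adjusted p = 0.002). It was among the genes that went against MHC class II from cell to cell within each library, and it missed the threshold without the deep cells (log2 0.29) and without the Lyz2-rich cells (0.26). Fscn1 stood at 2810.4, 2323 and 3760 CPM (0.52, SE 0.132), and as it chose the cells this is given as description; among all other barcodes it was 0.71 higher on the log2 scale.

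Cd70, the ligand of the co-stimulatory receptor CD27, rose from 40.4 and 28.9 CPM to 104 CPM (log2 1.5, SE 0.388, edgeR adjusted p = 0.0199). It had 0 UMIs in Cd209a gate DCs of all 3 libraries, and 10.6%, 9.80% and 21.95% of the migratory DCs carried it (4.71%, 5.88% and 12.2% after thinning to 2000 UMIs). Without the Lyz2-rich cells its log2 difference was 1.37 and missed the threshold (edgeR adjusted p = 0.0802). Ppdpf stood at 216, 293 and 587 CPM (1.20, SE 0.249) and Rhoc, a small GTPase gene of cell movement, at 78.6, 54.3 and 165 CPM (1.24, SE 0.33). Kdm4a, a histone demethylase, stood at 58.4, 57.9 and 167 CPM, and Tmem150c at 51.6, 36.2 and 122 CPM. For these 5 genes the WT libraries lay closer to each other than to the Lag3KO library.

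Serpinb1a, Slc27a3 and Chil3 rose with WT libraries that lay far apart. Serpinb1a, an inhibitor of neutrophil proteases, stood at 11.2, 65.1 and 114 CPM, Slc27a3, a fatty acid transport gene, at 106, 32.6 and 189 CPM, and Chil3, a secreted product of monocytes, at 308, 94.1 and 433 CPM. A single cell held 46.7%, 61.5% and 42.3% of the Chil3 UMIs. Against WT_CD45 1 alone the log2 differences of Serpinb1a, Slc27a3 and Chil3 were 3.30, 0.82 and 0.48, and against the other WT library alone 0.76, 2.48 and 2.15. The log2 difference of Chil3 was 4.75 without the deep cells and 3.82 without the Lyz2-rich cells.

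**Figure D5:**
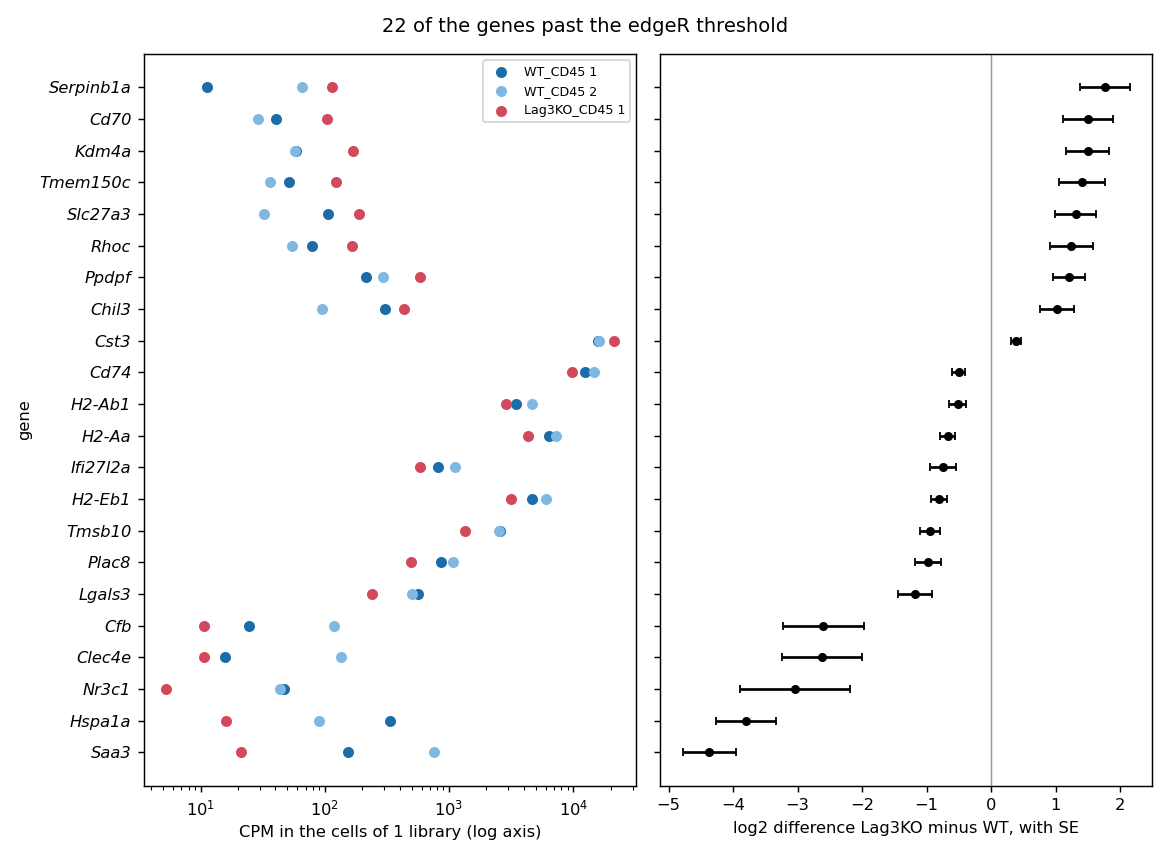
Of the 35 genes past the edgeR threshold, 22 are plotted; those with ribosomal and clone names, Fscn1, Cd209a and Elane are among the genes left out: CPM in each library (left, log axis) and log2 difference Lag3KO minus WT with its SE (right). The Lag3KO points lie outside both WT points in every row, an order that the choice of these genes by the test favours. The SE is widest for Nr3c1.

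Most other gene lists held 0 or 1 gene past the test, against 0.784% of all genes, which is less than 1 gene in a list of these sizes. The monocyte and macrophage markers had 2 of 10, with Chil3 higher and Plac8 lower. Co-stimulatory ligands had 1 of 8 tested genes higher (Cd70), with 7 positive log2 differences and a median of 0.33; Cd40 had a log2 difference of 0.90 (SE 0.263, edgeR adjusted p = 0.0654) and was not called. Inhibitory ligands and immunoregulators had 1 of 12 lower (Lgals3; median -0.14), and the actin and migration list 1 of 33 lower (Tmsb10; median 0.13). Heat shock genes had 1 of 11 lower (Hspa1a) and 10 negative differences, with a median of -0.47. The list of genes near Lag3 on chromosome 6 had 1 of 9 lower (Clec4e). Antigen uptake receptors had 1 of 10 lower (Cd209a).

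Several lists held no gene past the test, which at 0.784% of all genes is no result about them. The 4 migratory DC markers were all positive, with Fscn1, a gene of the rule, the only one called. The DC maturation list had 0 of 40 genes called (17 positive, 23 negative, median -0.024), NF-kB 0 of 22 (median -0.03), chemokines 0 of 13 (median 0.20), cytokines 0 of 7 and DC lineage factors 0 of 15. Irf8 had a log2 difference of 0.60 (SE 0.174, edgeR adjusted p = 0.0652) and Ccl22 one of 0.45 (SE 0.146, edgeR adjusted p = 0.169). MHC class I had 0 of 17 called with a median of 0.12; B2m stood at 12963.5, 11481 and 13696 CPM. The type I interferon list had 0 of 21, interferon gamma 0 of 16, glycolysis 0 of 13 with 12 negative, immediate early genes 0 of 14 with 12 negative, cholesterol and lipid export 0 of 7 and cell cycle 0 of 7. A p that misses the threshold does not show that these genes were alike.

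The test of the difference between the genotype effect in migratory DCs and in Cd209a gate DCs passed for 13 of 5582 genes (0.233%), 5 higher (0.0896%) and 8 lower (0.143%); 285 genes (5.11%) had an unadjusted p under 0.05. Ccl5 was 1 of them: it held its level in migratory DCs (14669.5, 14354 and 15698 CPM) and stood at 741, 268 and 206 CPM in Cd209a gate DCs, a difference of effects of 1.39 (SE 0.227, edgeR adjusted p = 7.8e-05). Without WT_CD45 1 that difference was 0.52, and without the other WT library 2.00. Lgals3 was another, at 559, 507 and 239 CPM against 1546, 1484 and 1702 CPM, a difference of -1.30 (SE 0.239, edgeR adjusted p = 0.000758). Ppdpf, at 216, 293 and 587 CPM against 109, 190 and 132 CPM, gave 1.35 (SE 0.328, edgeR adjusted p = 0.0446). DESeq2 called 0 genes here, with 13 at an unadjusted p under 0.05, and with RLE size factors 5 of the 13 were called, Lgals3 among them and Ccl5 and Ppdpf not. Over the 9 alternative settings, Ccl5 was called in 5, Lgals3 in 4 and Ppdpf in 3. Lgals3 was not called with stricter C1q and Cd3 limits, without the deep cells or without the Lyz2-rich cells.

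The 4 libraries of CD4-enriched cells held few such cells. The same limits found 2, 1, 1 and 2 barcodes in WT_CD4 1, WT_CD4 2, Lag3KO_CD4 1 and Lag3KO_CD4 2, 6 in all, too few to compare genotypes. In their 16450 UMIs, Ccl22 was found in 4 of 6, Tmem123, Serpinb6b and Relb in 6 of 6, and Ccl5 stood at 24377 CPM.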

How the data were processed

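The authors deposited a UMI count for each gene and cell barcode, made from 10x Genomics 3′ v2 libraries with Cell Ranger on GRCm38 (mm10), per the submitters' processing notes, which also name Seurat; no source used here gives versions. The 27998 genes in all 7 libraries were used; CPM are over these. Doublets were treated only by the limits of the rule. The members and gene lists were chosen with earlier results of these data known. Counts were summed per library and tested with edgeR 4.0.16 (glmQLFit with its default estimator, TMM, filterByExpr) in R 4.3.3; DESeq2 1.42.0 was an alternative. In the genotype fit the common dispersion was 0.0192. On simulated counts with 200 of 4466 genes changed, 71 were called, 10 of them falsely, and 25.4% of 2-fold and 65.2% of 4-fold changes were found. For the difference between gates (5582 genes) 33 were called, 2 falsely. With legacy off the same simulations called 91 genes, 21 falsely, by genotype and 37, 4 falsely, for the difference between gates. Every simulated gene had the common dispersion of its fit, which real genes need not share. The false calls found there thus cannot vouch for the calls in the real data.

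Named genes are the 30 leading ones, the 12 furthest each way from Cd209a gate DCs, the 12 called genes furthest each way with at least 20 UMIs, called list members with up to 4 abundant uncalled ones per list, and the 15 most variable. Others, such as Ccl19, Pdcd1lg2, Il12b, Ebi3, Irf4, Epsti1 and Xcr1, were chosen after their values were seen. Alternatives were other size factors, DESeq2, no count filter, wider, narrower and stricter gates, deep cells left out and each WT library left out. Some genes that meet the rule are not reported here.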

Additional observations from a re-analysis of the deposited data

Results flagged for a closer look

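The test of the difference between the 2 gates, which shows where the genotype effect in migratory DCs differs from that in Cd209a gate DCs, picked out 13 genes (edgeR, adjusted p under 0.05); their part in any other result was not tested. Differences of effects on the log2 scale were 1.39 for Ccl5, 1.35 for Ppdpf and 3.24 for Isg20 (2.24, 21.7 and 45.1 CPM in migratory DCs, libraries in the order of the report). Those of Lgals3 and Il4i1 were -1.30 and -2.35. Isg20 was low in migratory DCs and passed in 2 of the 9 alternative settings. Il4i1 stood at 449, 604 and 605 CPM in migratory DCs and at 9.63, 6.54 and 56.3 CPM in Cd209a gate DCs.

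Others came from few UMIs or single cells, and the fitted sizes of genes at 0 depend on the prior count. Ly6d gave -6.61 and Cox6a2 -4.22, with 95.5% of the Lag3KO library's Ly6d UMIs of migratory DCs in 1 cell. S100a9 gave 5.06, and stood at 911 CPM in Cd209a gate DCs of WT_CD45 1 against 22.9 and 9.71 CPM in the other libraries. With stricter C1q and Cd3 limits S100a9 gave 0.91 (edgeR adjusted p = 1). Cox6a2 gave -1.41 with those limits, -1.26 without the deep cells and -0.77 without the cells rich in Lyz2 or B cell RNA, and passed in none of the 3. Clec4e gave -4.15, Cd69 -2.43, which passed under none of the 9 alternative settings, and Bambi 6.09, the last from 0, 1 and 11 UMIs in migratory DCs. Cd8a gave -8.95 from 9, 3 and 0 UMIs, and Cd209a, which chose the other gate, -7.69 from 25, 4 and 0 UMIs. With WT_CD45 1 left out, S100a9, Bambi, Isg20, Clec4e and Ly6d gave 2.74, 3.65, 2.06, -5.59 and -5.18. With the other WT library left out they gave 5.23, 9.41, 5.28, -2.37 and -7.33.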

How the results depend on the processing

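The count of 35 genes by genotype was 0 with DESeq2, 0 with edgeR's legacy option off and 0 with the narrower gate. It was 17 with no count filter, 15 of them among the 35. The other 5 settings gave 26 to 36. Genes shared with the 35 were 35 with RLE size factors and 32 with the wider gate. They were 23 without the deep cells, 21 without the Lyz2-rich cells and 20 with stricter C1q and Cd3 limits. The spread was shared across genes without limit with the default estimator, with a prior of 13.2 degrees of freedom with legacy off and 6.57 with the narrower gate. For the gate difference, where 13 genes were called, the count was 0 with DESeq2, 1 with legacy off, 5 with RLE size factors, 2 with stricter limits (at most 5 C1q UMIs per 10000 and 0 Cd3 UMIs) and 2 without cells rich in Lyz2 or B cell RNA, 1 of them among the 13. The other 4 settings gave 12 to 16; the 12 without the deep cells held 3 of the 13. No gene changed direction in any setting that tested it. The legacy option and the removal of Lyz2-rich cells were chosen after seeing the data.

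Without the Lyz2-rich cells 21 of the 35 genes kept their call, 11 missed the threshold and the rest were not tested. The log2 differences of Rps29 and Tmem150c were then -0.44 and 1.23, against -0.45 and 1.40, and that of Serpinb1a 1.32 against 1.76. Without the deep cells 23 kept their call, 8 missed the threshold and the rest were not tested. Saa3 was then at -1.91 against -4.37.

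Without 1 WT library a gene value has no test: of the 35 genes, 16 moved by more than their SE without WT_CD45 1 and 16 without the library labelled WT_CD45 2. Gene counts could not be had there. The share difference was -0.403 to 0.978 percentage points with 1 WT library left out, 0.0742 points over the 4 DC gates and 2.00 points without the C1q and Cd3 limits, chosen after seeing the data. The 6 barcodes of the CD4 libraries became 4 to 5 with 1 library left out; no fit of them, alone or with the CD45 libraries, was run, since none had 20 cells. No paired analysis was possible because replicate numbers only name libraries in accession order. Median depths of 3913 to 4529 UMIs in 51 to 85 cells per library limit the genes of few UMIs.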
